A study of Mus musculus with 6 samples.

Results

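Zfp738 and 9 relatives of it (Zfp429, Zfp708, Zfp712, Zfp759, Zfp595, Zfp85, Zfp456, Zfp458 and Rsl1) are zinc finger genes of 1 cluster on mouse chromosome 13. They were taken by symbol, 10 of the 55291 genes in the expression table. Zfp738 was chosen by its change between the groups compared here, in these same libraries, and the other 9 were listed as its relatives in the cluster with those results known. Their levels are therefore given as a description, and no test supports a statement about them. Of the 10, 8 reached a mean of 10 normalised counts over all libraries, the level required for fitting, and Zfp429 and Zfp456 did not.

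All libraries were made from LLC, the Lewis lung carcinoma line of the mouse, with no further treatment. The Calr KO group (n = 3) received plasmids for Cas9 and a guide RNA against Calr, which encodes the ER chaperone calreticulin, and the control group (n = 3, labelled WT) received Cas9 with a control guide. Both were cultured for 10 days, plated in 3 wells per group and lysed after 48 hours, and all 6 libraries carry 1 batch label. Each group is, as described, 1 transduced population divided over wells and not a clone. The spread given below is therefore between wells, and no value measures the spread between independent knockouts.

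KRAB zinc finger proteins are the largest family of transcription factors in mammals. An array of C2H2 fingers, each folded around zinc by a pair of cysteines and a pair of histidines, reads the DNA, and the KRAB A box near the start of the protein recruits the co-repressor TRIM28, which brings histone methyltransferase SETDB1 and heterochromatin proteins. Many of these proteins silence transposable elements, and their genes lie in clusters that grew by duplication, so that neighbours can be nearly identical in sequence. In the chromosome 13 cluster, Rsl1 (regulator of sex limitation) is known as a repressor of male-biased liver genes, and Zfp708 as a repressor of a class of retrotransposon repeats.

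Calr, the targeted gene, held 4467, 4216 and 4453 normalised counts in the Calr KO libraries and 10711, 10202 and 11047 in the controls. Its log2 change was -1.28 (SE 0.04), with a limma adjusted p of 7.9e-07. The columns sum to 14040692 to 14099985 normalised counts, from an estimated 13565886 to 14920619 reads. Of the 6 epithelial markers, Krt8 (4375 to 4907) and Krt18 (254 to 334) were present in all libraries, Epcam and Krt19 were listed at 0, and Krt7 and Cdh1 stayed under 5 normalised counts. The mesenchymal marker Vim was high, and so was the fibroblast marker Pdgfra (1672 to 2137), while Col1a1 lay between 3.10 and 10.6. Vim was lower in every Calr KO well (35208 to 37378) than in any control (38527 to 40870). The leukocyte markers Adgre1 and Cd3e and the red cell marker Hbb-bs were listed at 0 in every library, and Cd68 lay between 53.4 and 94.5. The leukocyte gene Ptprc was listed at 0 in Calr KO and lay between 0.591 and 6.12 in the controls. Of the 2 endothelial genes, Cdh5 held 6.80, 5.91 and 37.4 in Calr KO and 2.98 to 4.17 in the controls, and Pecam1 overlapped, with 6.28, 16.6 and 4.24 against 8.88, 3.78 and 4.27. Mitochondrial transcripts took 2.89%, 2.90% and 2.97% of the Calr KO libraries and 2.80%, 2.78% and 2.78% of the controls, a small step without overlap. The part of these differences in the results below was not tested.

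The 10 genes lie on GRCm38, the assembly of the mm10 build, between positions 67038596 and 67755228 of chromosome 13. In GENCODE M21 all are protein coding, 8 on the minus strand and 2, Zfp759 and Rsl1, on the plus strand. Zfp738 (ENSMUSG00000048280.18) spans 67658685 to 67687071 and has 7 annotated transcripts. Zfp85 (67747800 to 67755228) lies on its far side at the distal end of the span. Zfp712 (67038596 to 67061170) and Zfp708 (67069399 to 67097976) mark the proximal end. The remaining genes stand between them in the order Zfp759 (67121660 to 67141787), Rsl1 (67173182 to 67184044), Zfp458 (67254918 to 67278466), Zfp595 (67312998 to 67332570), Zfp456 (67362113 to 67375810) and Zfp429 (67387905 to 67399819).

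The proteins translated from the annotated coding sequences carried 10 to 20 C2H2 fingers, with a median of 17 over all 10. The median was 12 over 259 genes of the annotation with a KRAB A box by pattern and 3 or more fingers. These 259 include 7 of the 10, so the medians come from overlapping sets that were defined differently. ZFP738 has 793 residues and 20 fingers, as many as ZFP458 and ZFP712, whereas ZFP429 and ZFP456 have 10 each. A pattern for the KRAB A box found it in 7 of the 10. With cysteine allowed in place of its tryptophan, an alternative chosen after seeing the data, it was found in 9, ZFP708 and ZFP85 included, and not in ZFP759. Identity of aligned residues ran from 47.7% to 94.0% over the 45 pairs, with a median of 55.3%. The closest were ZFP429 with RSL1 (94.0%), ZFP429 with ZFP456 (92.5%) and ZFP456 with RSL1 (90.5%), followed by ZFP708 with ZFP85 (74.2%). The closest relative of ZFP738 among the 10 was ZFP595, at 69.9%.

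Reads from stretches that are identical between genes cannot be placed by sequence alone, and the longest identical coding stretches of 3 pairs of genes in the cluster are therefore shown. Sequences are from the GENCODE M21 transcripts, 5′ to 3′, on the coding strand. Zfp738 shares 298 bases of the finger array with its neighbour Zfp729a, and 267 bases with Zfp729b. Capitals mark the codons of the zinc-binding cysteines and histidines of each complete finger.
Zfp738 and Zfp729a: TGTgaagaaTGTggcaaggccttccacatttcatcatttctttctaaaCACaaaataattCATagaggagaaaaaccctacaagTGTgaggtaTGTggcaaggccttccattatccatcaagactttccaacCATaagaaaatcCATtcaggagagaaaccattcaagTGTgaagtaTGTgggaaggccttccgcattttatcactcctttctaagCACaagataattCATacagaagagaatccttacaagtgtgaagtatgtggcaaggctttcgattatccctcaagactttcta
Zfp738 and Zfp729b: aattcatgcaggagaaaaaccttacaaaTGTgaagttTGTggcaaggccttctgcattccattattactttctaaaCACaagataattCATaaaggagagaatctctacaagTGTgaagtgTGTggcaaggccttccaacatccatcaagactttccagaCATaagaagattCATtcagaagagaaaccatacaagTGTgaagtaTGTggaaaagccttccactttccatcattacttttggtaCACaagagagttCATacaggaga

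Zfp708 and Zfp85 share 166 coding bases over the start of the protein. Capitals mark the match to the KRAB A box pattern that allows cysteine.
Zfp708 and Zfp85: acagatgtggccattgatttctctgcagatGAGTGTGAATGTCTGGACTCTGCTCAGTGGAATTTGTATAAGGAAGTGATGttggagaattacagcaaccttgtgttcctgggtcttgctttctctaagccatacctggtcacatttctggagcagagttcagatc
In the stretches of Zfp738 the capitals recur along the sequence, 1 set per finger. The stretch of Zfp708 and Zfp85 lies over the repressor domain.

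The transcripts of each gene were divided into all their 50-base windows, and each window was looked up on both strands of all other transcripts. For Zfp738, 17.8% of 15159 windows occurred in another gene, while 0.198% occurred in another of the 10 genes. Its main partners were Gm26587 (6.20% of its windows), Zfp729a (5.70%), Zfp729b (3.50%) and Gm49345 (3.48%). Gm26587 is a processed pseudogene on the opposite strand, annotated inside Zfp738 (67660457 to 67661445). Gm26587 and Gm49345 were listed at 0 in all 6 libraries. Longer windows left less shared, 13.9% at 75 bases and 12.01% at 100 bases.

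Zfp708 stood at the other end, with 94.9% of its windows in another gene. Nearly all of them (94.6%) were in Gm28557, a longer transcript unit on the same strand (67069399 to 67108604) that covers the whole of Zfp708. Zfp456 had 65.5% shared, 50.7% with Gm17039, an antisense gene that overlaps it on the opposite strand. Zfp85 had 31.9% shared, 22.1% with Zfp273 and 10.5% with its antisense transcript Zfp85os. The labels do not state whether counting used the strand. If it did, the antisense parts of Zfp456 and Zfp85 would not be a source of shared reads. Rsl1 (25.2%) and Zfp429 (25.04%) shared mainly with each other and with Zfp456. For Zfp595, Zfp458, Zfp712 and Zfp759 the shared part was 4.33%, 2.29%, 2.19% and 0.481%. Values of Zfp708, Zfp456 and Zfp85 are therefore less certain as values of single genes than those of these 4.

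**Figure D1:**
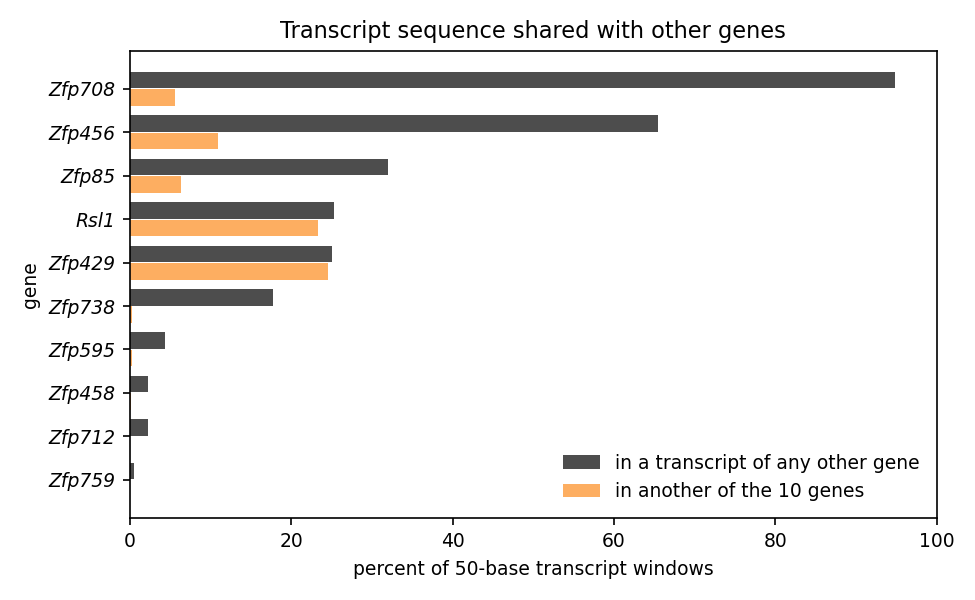
Bars give, for each of the 10 genes, the percent of the distinct 50-base windows of its GENCODE M21 transcripts that also occur in a transcript of any other gene (grey) or of another of the 10 (orange). Zfp708 stands at 94.9% and Zfp759 at 0.481%, and Zfp738 at 17.8% with 0.198% in the other listed genes.

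Zfp738 was the most abundant of the 10 in normalised counts and the one with the largest change. It held 511, 523 and 514 normalised counts in the Calr KO libraries and 244, 293 and 218 in the controls. Every Calr KO library lay above every control, and the Calr KO wells lay closer together (SD 5.78) than the control wells (SD 37.8). Each SD rests on 3 wells, and the difference in spread was not tested. The means were 516 ± 5.78 against 252 ± 37.8 (SD, n = 3). The change was 1.04 on the log2(value + 1) scale (SE 0.11, 95% interval 0.79 to 1.29). This is the value for which the gene was chosen. In bulk RNA, more cells with the transcript and more transcript per cell cannot be told apart. Past an adjusted p of 0.05 in limma lay 0.28% of all 13199 tested genes (0.197% higher, 0.0833% lower), and 8.88% had an unadjusted p under 0.05. Of the 8 fitted genes the count was 1, the gene chosen for its change, so nothing is read from it.

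Rsl1 held 154, 168 and 134.0 normalised counts in Calr KO and 120.5, 109 and 133.4 in control cells. The groups did not overlap, but the lowest Calr KO well and the highest control well were almost level. The difference was 0.32 (SE 0.14, 95% interval 0.01 to 0.64, which is not adjusted for the number of genes), or 152 ± 17.1 against 121 ± 12.1 normalised counts (SD, n = 3). Its near-identical relatives were almost unmeasured. Zfp429 was listed at 0 in 5 libraries and at 0.964 in control replicate 3, and Zfp456 at 0 in 5 libraries and at 1.03 in Calr KO replicate 2. About 1.00 normalised count corresponds to 1 read here (0.945 to 1.04 over the libraries), so each of these genes had at most an estimated single read.

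Zfp708 held 17.9, 22.6 and 34.4 normalised counts in Calr KO and 27.9, 54.8 and 32.8 in control cells. The groups overlapped, and control replicate 2 stood above the rest. The difference was -0.60 with a wide error (SE 0.34, 95% interval -1.35 to 0.16), and it was -0.32 without control replicate 2. Gm28557, which contains the sequence of Zfp708, moved the other way, with 65.9, 68.0 and 37.7 in Calr KO and 42.02, 44.9 and 48.1 in control cells (difference 0.29, SE 0.25, limma adjusted p = 0.791). The sum of both was 83.8, 90.6 and 72.1 in Calr KO and 69.9, 99.8 and 80.9 in control, means of 82.1 ± 9.36 and 83.5 ± 15.1 (SD, n = 3). The summed values overlapped fully. This sum was formed after the values were seen. In Calr KO replicate 3 Zfp708 was highest and Gm28557 lowest of that group.

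Zfp85 was low in 2 Calr KO wells and high in the third. It held 65.9, 73.1 and 129.7 normalised counts in Calr KO and 105, 113 and 99.3 in control cells, so that Calr KO replicate 3 exceeded every control. The difference was -0.30 (SE 0.24, 95% interval -0.84 to 0.24) and -0.60 without Calr KO replicate 3. Leaving out Calr KO replicate 1 or 2 gave -0.12 and -0.19. The overlapping antisense transcript Zfp85os was also highest in Calr KO replicate 3, with 19.1, 15.1 and 27.7 in Calr KO against 23.3, 24.1 and 24.3 in the controls, while Zfp273, the main partner by sequence, held 116, 95.7 and 100.3 against 112, 100.4 and 104.

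The 4 genes with the least shared sequence had log2 differences between -0.20 and 0.08. Zfp759 held 56.6, 62.6 and 58.1 normalised counts in Calr KO and 55.8, 59.0 and 60.8 in control cells, a difference of 0.01 (SE 0.16, 95% interval -0.36 to 0.38). Zfp712 held 68.9, 67.7 and 54.0 against 72.7, 74.5 and 70.4, with every Calr KO well below the controls, at -0.20 (SE 0.17), and -0.09 without Calr KO replicate 3. Zfp595 held 129, 105 and 140 against 151, 150 and 107, at -0.12 (SE 0.18). Zfp458 held 81.3, 70.4 and 68.9 against 54.8, 75.6 and 79.7, at 0.08 (SE 0.19). The groups overlapped for Zfp759, Zfp595 and Zfp458. The sign of these 3 differences turned when 1 library was left out: Zfp759 went to -0.03 without Calr KO replicate 2 and to -0.02 without control replicate 1, Zfp595 to 0.0021 without Calr KO replicate 2, and Zfp458 to -0.08 without control replicate 1. The intervals of Zfp712 (-0.58 to 0.18), Zfp595 (-0.51 to 0.28) and Zfp458 (-0.34 to 0.51) bound what the wells allow for these genes. Over the 8 fitted genes, groups did not overlap in 2 on the higher side (Zfp738, Rsl1; 7.57% of all tested genes) and in 1 on the lower side (Zfp712; 7.28% of all tested genes).

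**Figure D2:**
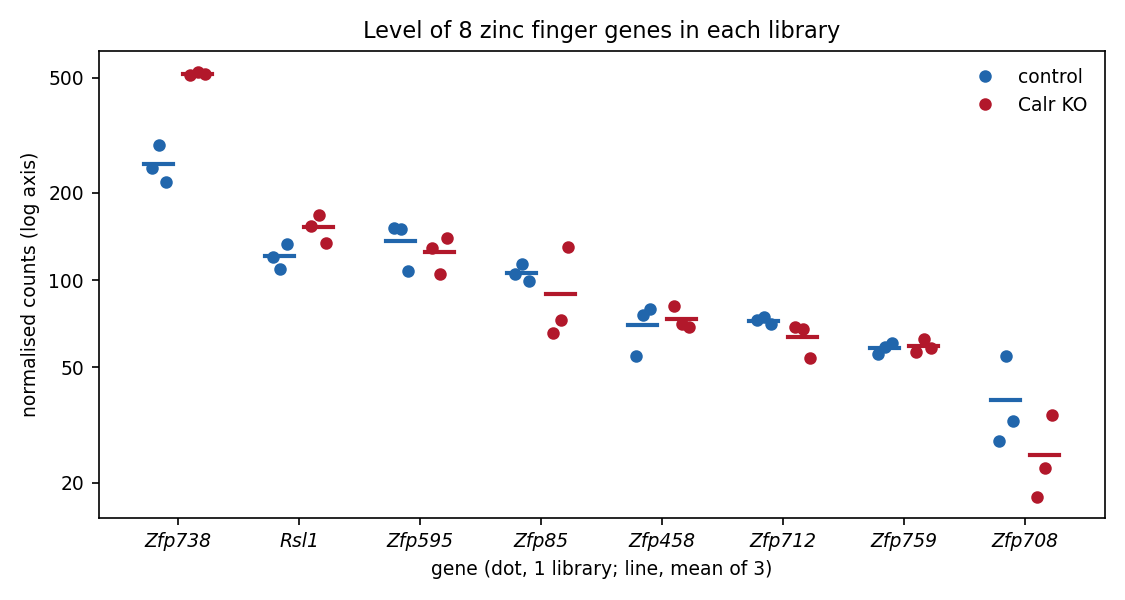
Dots give the normalised counts of each library on a log axis for the 8 genes with a mean of at least 10, controls in blue and Calr KO in red, with lines at the means of 3. Zfp738 has its Calr KO wells at 511 to 523 above controls at 218 to 293, whereas most other genes overlap, and Zfp85 has 1 Calr KO well at 129.7 far from the other two.

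Because reads can be shared among them, the 10 genes were also summed in each library. The sum was 1085, 1093 and 1133 normalised counts in Calr KO and 832, 930 and 803 in control cells, without overlap. Its means were 1104 ± 25.9 and 855 ± 66.4 (SD, n = 3), a ratio of 1.29. Without Zfp738 the other 9 summed to 574, 570.4 and 619 in Calr KO and to 587, 637 and 584 in control cells. These values overlapped, with means of 588 ± 27.3 and 603 ± 29.3 (SD, n = 3) and a ratio of 0.975. The 10-gene sum was higher by 249 normalised counts in Calr KO, Zfp738 alone by 264, and the other 9 together were lower by 15.1 (-15.1). The share of Zfp738 in the sum was 47.1%, 47.8% and 45.4% in Calr KO and 29.4%, 31.5% and 27.2% in control cells. The sum thus contains the value for which Zfp738 was chosen, and it does not cover the genes outside the 10 that share sequence with Zfp738.

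**Figure D3:**
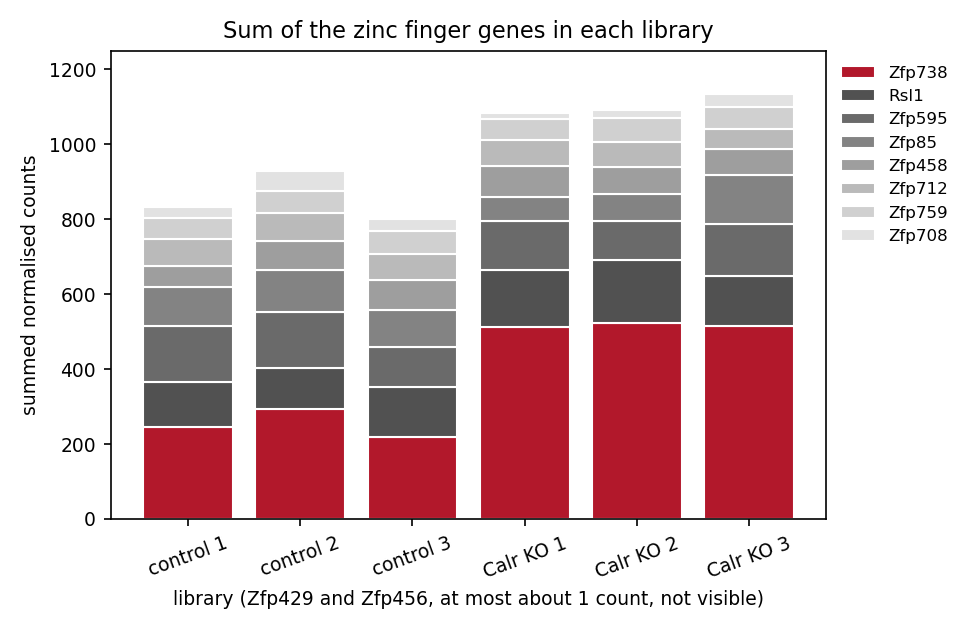
Stacked bars give the summed normalised counts of the listed genes in each library, with Zfp738 in red and the 7 other fitted genes in grey. The total lies between 801.9 and 930 in the controls and between 1085 and 1133 in Calr KO, and the grey part stays between 569.3 and 637 in all 6.

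Levels of different genes were compared per kilobase of annotated exon, a scale on which 1 unit is 1 normalised count per kilobase. In control cells the order was Rsl1 (45.7 ± 4.56), Zfp85 (44.9 ± 3.02), Zfp595 (25.01 ± 4.61), Zfp712 (18.3 ± 0.522), Zfp738 (16.7 ± 2.50), Zfp759 (15.5 ± 0.665), Zfp708 (14.6 ± 5.45) and Zfp458 (8.64 ± 1.64; SD, n = 3). In that order the ranges of Rsl1 and Zfp85 overlapped, as did those of each neighbouring pair from Zfp712 to Zfp708. In Calr KO cells Zfp738 was the third, at 34.1 ± 0.382, below Rsl1 (57.4 ± 6.46) and Zfp85 (37.97 ± 14.8) and above Zfp595 (22.9 ± 3.31). Its range overlapped that of Zfp85 and not that of Zfp595. Zfp712 (16.01 ± 2.09), Zfp759 (15.7 ± 0.817), Zfp708 (9.48 ± 3.23) and Zfp458 (9.07 ± 0.840) followed, with overlap between Zfp712 and Zfp759 and between Zfp708 and Zfp458. The annotated exons of Zfp738 add up to 15.1 kb, the longest of the 10, and with the longest transcript in place of all exons its Calr KO level was 39.0. On that scale it was the second in Calr KO, just above Zfp85 (38.7 ± 15.1), and the fourth in control cells, while on the exon scale it was the third and the fifth. The order in normalised counts and the order per length thus differ for Zfp738.

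The genes around Zfp738 were examined next, taking all that start within the span or up to 1 Mb from its ends. Of 110 such genes other than the 10, 22 were tested, and 0 rose and 0 fell (limma, adjusted p of 0.05), while 1 had an unadjusted p under 0.05, beside 0.28% and 8.88% of all tested genes. With 22 genes tested, a count of 0 is near that background. Their median change was 0.03, beside 0.00036 over all tested genes. Zfp729a, the nearest tested gene on the proximal side and the partner by sequence, held 378, 352 and 353 in Calr KO and 399, 338 and 390.3 in control cells (-0.06, SE 0.09, adjusted p = 0.905). Zfp65, the nearest on the distal side, held 291, 305 and 313 against 279.6, 254 and 310.2 (0.11, SE 0.10, adjusted p = 0.801). Both have groups that overlap. Zfp729b held 219, 226 and 215 against 210.3, 210.4 and 209 (0.07, SE 0.09, adjusted p = 0.88). Its Calr KO wells were all above its controls by a small step, with a 95% interval of -0.14 to 0.28.

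Among the other abundant zinc finger genes of the cluster, Zfp748 differed by -0.08 (adjusted p = 0.899), Zfp493 by 0.12 (0.841) and Zfp87 by -0.09 (0.957). Zfp457 was too low to be tested and was singled out after its values were seen. It held 6.97, 19.4 and 15.0 normalised counts in Calr KO and 1.72, 4.96 and 1.06 in control cells. Its groups did not overlap, and with genes of a mean of at least 1 included its difference was 2.10 (SE 0.55, limma adjusted p = 0.319). Of its 50-base windows, 4.95% also occur in Zfp458. Summed over 25 zinc finger genes of the cluster, the libraries held 3275, 3255 and 3111 in Calr KO and 2837, 2986 and 3057 in control cells. Without Zfp738 these sums were 2764, 2733 and 2597 against 2592, 2693 and 2839, and the groups overlapped.

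**Figure D4:**
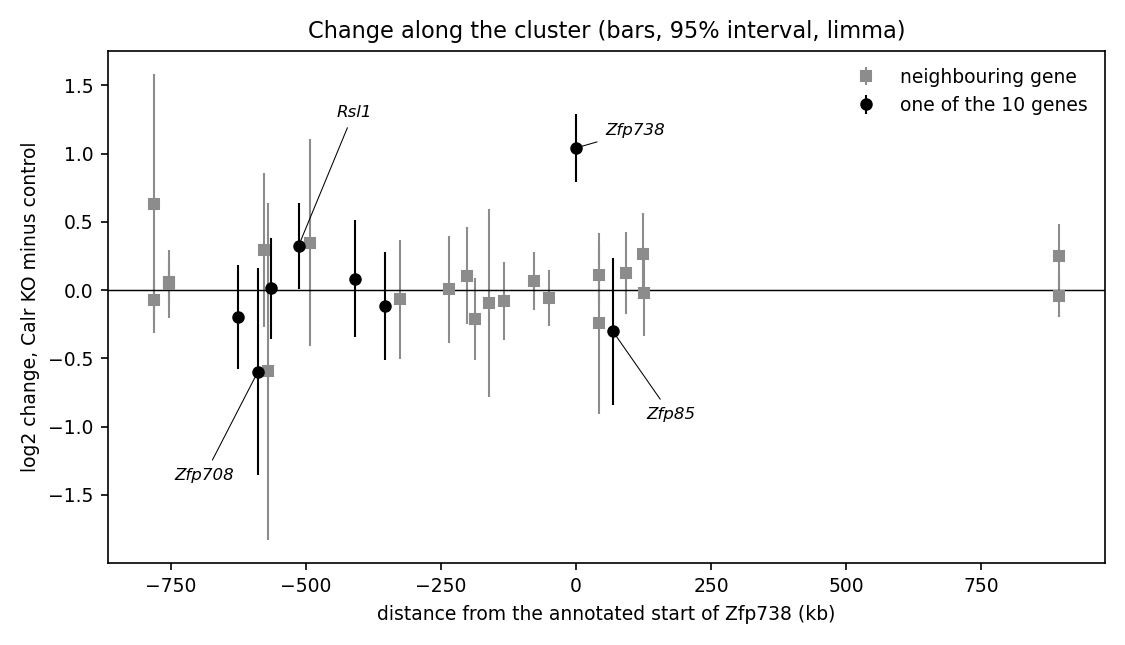
Points give the log2 change (Calr KO minus control) of each tested gene against the distance of its annotated start from that of Zfp738 in kb, with 95% intervals from limma, black circles for the listed genes and grey squares for their neighbours. Zfp738 lies at 1.04 and its nearest tested neighbours Zfp729a and Zfp65 at -0.06 and 0.11.

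Zinc finger genes of the whole genome, cluster neighbours included and the listed genes left out, were set beside the listed genes. Of 413 other genes with a symbol starting with Zfp, 325 were tested, and 0 rose and 0 fell (limma), beside 0.28% of all tested genes, with 22 at an unadjusted p under 0.05 and a median of 0.0037. Of 250 other genes whose protein holds a KRAB A box and 3 or more fingers, 202 were tested, and again 0 rose and 0 fell. In this list 12 had an unadjusted p under 0.05, and the median was 0.03. Over all tested genes 8.88% had an unadjusted p under 0.05, so nothing is read from either count. Cluster neighbours such as Zfp729a and Zfp65 are in both lists, and 12 of the 325 are cluster neighbours. Neither list is therefore separate from the neighbours counted above. The log2 changes ran from -0.89 to 1.61 in both lists. A KRAB zinc finger gene that did not pass thus had a larger log2 change than Zfp738 (1.04). The groups did not overlap in 20 of these 202 on the higher side and in 5 on the lower side, beside 7.57% and 7.28% of all tested genes. By the smallest p, Zfp57, which protects imprinted genes from losing their methylation, held 316, 337 and 311 in Calr KO and 265, 222 and 264 in control cells (0.36, SE 0.10, adjusted p = 0.323). Zfp266 differed by -0.22 (adjusted p = 0.327), Zfp280c by -0.28 (0.378) and Zfp229 by 0.73 (0.394). Zfp229 held 170.3, 294 and 219 in Calr KO against 145, 99.4 and 166 in control cells. In all 4 the groups did not overlap. This is likely for genes picked by the smallest p in the same contrast, so nothing is read from it.

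**Figure D5:**
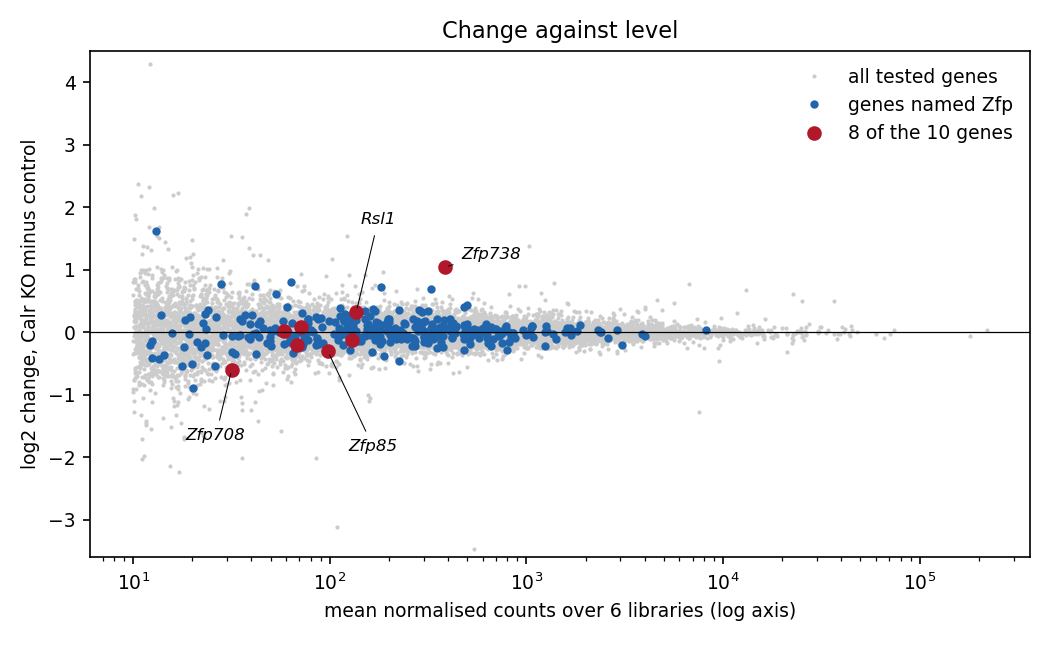
Each point is a tested gene, placed by its mean normalised counts over 6 libraries (log axis) and its log2 change, with genes named Zfp in blue and the 8 fitted genes of the list in red. Zfp738 lies at 1.04, apart from the other listed genes, which lie between -0.60 and 0.32.

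A list of genes for proteins that work with KRAB zinc fingers differed by between -0.07 and 0.36, with a median of 0.04. The upper end is Zfp57, which is itself a KRAB zinc finger gene and was also counted in the preceding paragraph. Of 33 listed co-repressor and heterochromatin genes in the table, 32 were tested, and 0 rose and 0 fell (limma), with 2 (Zfp57 and Cbx5) at an unadjusted p under 0.05. Both counts are near the shares over all tested genes, 0.28% and 8.88%. Trim28, the co-repressor bound by the KRAB box, held 2959, 3204 and 3111 in Calr KO and 3319, 3019 and 3169 in control cells (-0.04, SE 0.05, 95% interval -0.14 to 0.07, adjusted p = 0.875). Setdb1, the methyltransferase it recruits, differed by 0.01 (95% interval -0.11 to 0.14, adjusted p = 0.975). The heterochromatin protein gene Cbx5 differed by 0.11 (adjusted p = 0.509), the remodeller gene Chd4 by 0.08 (0.741), the chromatin gene Atrx by 0.06 (0.749) and the DNA methyltransferase gene Dnmt1 by 0.03 (0.801). The mRNA levels do not measure the activity of these proteins.

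The liver genes known to be under Rsl control were almost unmeasured in this line. Of 8 in the table, 1 was tested, C4a, with 8.68, 24.2 and 13.8 in Calr KO and 9.37, 8.83 and 29.998 in control cells (0.06, SE 0.53, adjusted p = 0.985). Cyp7b1 lay between 0.965 and 11.96, and C4b and Cyp2d9 were listed at 0 in every library. A difference in these genes was not detectable at this depth.

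By Pearson correlation of log2 values over the 6 libraries, the genes most like Zfp738 among 13198 were Phf11c (0.997), Gm15975 (0.996), Klra4 (0.996), Oxct1 (0.995) and Fstl5 (0.990). Phf11c, Gm15975 and Fstl5 had low means, 10.3, 16.7 and 12.2, where 10 was required for fitting. Phf11c and Fstl5 reached that level only through Calr KO (means of 12.3 and 23.97), with control means of 8.34 and 0.345. Phf11c held 12.3, 12.3 and 12.5 in Calr KO and 7.97, 9.32 and 7.72 in control cells, a step of a few reads. The 6 points of each correlation come from the same libraries and fall into the 2 groups, so a high value needs a step between groups. Of the 13198, 52 had a correlation above 0.95, and 29 had a Spearman rho of 1 with Zfp738. Over all tested genes, 999 (7.57%) had every Calr KO well above every control. A rho of 1 needs the same order of wells within each group besides. How many genes would match that order by chance was not tested, so nothing is read from the 29. The 5 named genes had a rho between 0.77 and 0.94. Klra4 held 141, 138 and 139.99 in Calr KO and 96.7, 102 and 88.8 in control cells, with the highest control in replicate 2 as for Zfp738. Within Calr KO the order of its wells was the reverse of that of Zfp738, and its Spearman rho was 0.77. Oxct1 held 2898, 2885 and 2885 against 2636, 2717 and 2582. Fstl5 held 26.4, 18.5 and 27.0 in Calr KO and 0, 1.04 and 0 in control cells. It passed the test over all genes (limma adjusted p = 0.0116), and the other 4 had adjusted p values of 0.207 to 0.737. These 5 genes were picked for following the same groups in the same libraries, so nothing is read from these p values. The call of Fstl5 was lost without Calr KO replicate 2 (adjusted p = 0.0886), with the replicate number as a block (0.0619) and with a single variance prior (0.0648). Of the other listed genes, Rsl1 had the highest correlation with Zfp738, at 0.68, and Zfp712 the lowest, at -0.60.

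The sequence before each gene's start, 250 bases before to 50 after it in RefSeq (GRCm38.p6), was available for all 10 genes as 11 promoters and was searched on both strands. The ER stress element, the unfolded protein response element TGACGTGG and the amino acid response motif TGATGNAA were in 0 of the 11, beside 0.119%, 0.676% and 3.97% of 32817 promoters. With 11 promoters, a count of 0 is near these shares, so nothing is read from it. The CCAAT box, which the ER stress element contains, was in 4 of the 11, that of Zfp738 included. This is 36.4%, near the 37.4% of all promoters. The GC box GGGCGG was in 3 (27.3%, beside 35.6% of all promoters). The 11 promoters held a median of 9 CpG dinucleotides, against 7 over all promoters, and that of Zfp738 held 5. Zfp738 has further annotated starts outside this window.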

How the data were processed

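RNA was sequenced from 3 Calr KO and 3 control libraries of LLC cells. Per the labels, total RNA was extracted with TRIzol and made into libraries with a SMARTer mRNA-seq kit. The values used are a signal per gene, namely counts that the authors had scaled in DESeq2 before they deposited the table, going by its name in the labels. DESeq2 1.34.0, Salmon 0.14.1, STAR 2.6.1d and mm10 are listed in the submitters' processing notes, without a role for each. The annotation and the strand setting are not given in the sources used here. Values are not whole reads, so no count test was run. The worth of 1 read is the most frequent value between 0.5 and 1.5, and 79.3% to 82.9% of values below 1.5 reads were whole within 0.02.

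The 13199 genes reaching a mean of 10 were fitted on the log2(value + 1) scale in limma (version 3.58.1, R 4.3.3), with a variance prior following the mean, two-sided, and Benjamini-Hochberg adjustment over all of them at 0.05. Fold changes on this scale understate changes of low genes. Sequence work used Python 3.11.15 and Biopython 1.88 (global alignment, BLOSUM62). The genes and lists were chosen with earlier results of these data known. Named besides the 10 were Calr, the nearest and most abundant cluster neighbours, the Zfp genes of smallest p, co-repressors, Rsl-controlled genes and the 5 genes most like Zfp738. Alternatives were other pseudocounts, filters, scalings and variance priors, the replicate block and leaving out each library. Same-numbered wells did not deviate together (correlations -0.06, -0.01 and 0.0014), so the fit has no block. No protein table was used here, and fingers were counted in translated coding sequences by pattern.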

Additional observations from a re-analysis of the deposited data

How the results depend on the processing

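The log2 change of Zfp738 stayed between 0.94 and 1.16 over 16 alternatives, a range set by leaving out 1 library. The log2 ratio of the 10-gene sum was 0.33 to 0.43 with 1 library left out, -0.037 without Zfp738 and 0.12 over the 25 zinc finger genes of the cluster, the last chosen after seeing the data. No cluster neighbour, other Zfp gene, KRAB gene, co-repressor or Rsl-controlled gene passed under any alternative. The count over all genes was 37, 2 with a single variance prior and 20 to 34 with 1 library left out; the lowest, 20, came without the first Calr KO well, 21 without the third, and 22 without the second or the third control. The cause was not tested. With the replicate block 26 genes passed and the change of Zfp738 was 1.04, and the log2 ratio of the sum, averaged over same-numbered wells, was 0.37. The Calr KO level of Zfp738 was 39.0 per kilobase of its longest transcript, and its shared windows were 13.9% at 75 and 12.01% at 100 bases, since longer windows match less often. Phf11c, the gene most like Zfp738, had a Spearman's rho of 0.94. Of 470 values of 30 single genes under alternatives, 467 stayed on the same side of the threshold and 3, all of Fstl5, did not. The sign turned in 12 values of 7 genes, all with 1 library left out, and 3 of these genes are the listed Zfp759, Zfp595 and Zfp458. In the other 4, none past the threshold, the log2 change with 1 library left out ran from -0.211 to 0.0327 for Zfp748, from -0.340 to 0.216 for Zfp87, from -0.0377 to 0.0389 for Setdb1 and from -0.294 to 0.603 for C4a.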
